A study of Homo sapiens with 12 samples.

Results

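The human genes whose official name begins with LINC, for long intergenic non-coding RNA, and that were expressed in these cells numbered 8: LINC00672, LINC00869, LINC00888, LINC01145, LINC01347, LINC01529, LINC02210 and LINC02495. They were chosen by their measured level, at least 2 CPM (the count divided by the library total, rescaled) in at least 2 of 12 libraries, from 30 LINC symbols among 35940 gene symbols in the deposited table. No contrast between groups entered that choice, though LINC02495 reached the level only in treated libraries, most of them SOX2-positive. The other 22 did not reach it: 16 stayed under 1 CPM in every library, among them 6 with no count at all, and LINC01881 passed 2 CPM in 1 library, at 2.55 CPM. LINC-ROR, a LINC gene known from pluripotent stem cells, has no row in the table as analysed here. Just inside the level, by the second highest library, lay LINC02495 at 2.32 CPM, LINC01529 at 2.63 CPM and LINC00672 at 3.17 CPM. Just outside lay LINC01881 at 1.80 CPM, LINC00514 at 1.58 CPM and LINC00680 at 1.36 CPM.

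The libraries come from ESI017 SOX2::mCitrine, 1 human embryonic stem cell line with a fluorescent reporter on SOX2, a transcription factor of pluripotent and neural cells. All cells grew as colonies on micropatterned glass in N2B27, a serum-free medium, for 3 days. Control colonies had nothing added, and treated ones received 200 ng/ml of FGF8 together with WNT3A in a dose of 100, 300 or 1000 ng/ml. A cell sorter split treated cells by mCitrine into a SOX2-positive and a SOX2-negative gate, while the control titles name no gate. Control and both gates at the lowest and highest dose have 2 libraries each, and the gates at 300 ng/ml have 1, because the second biological repeat left out that dose. FGF8 and WNT3A were always given together, so their parts in a difference from control cannot be told apart. Every treated library is also a sorted gate, and the controls have none named. In a difference from control, treatment therefore cannot be told apart from sorting and from the choice of 1 gate.

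LINC names are given to genes that lay apart from coding genes and had no known protein when they were named, and many were renamed or moved to another class later. Some are old gene copies that lost the reading frame and are still transcribed, called transcribed pseudogenes. Reads from a young copy may match its relatives equally well, which limits what a count for that gene can show.

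At the level of whole genes GENCODE 29 puts none of the 8 in its long non-coding class, so they are called LINC-named genes here. It puts 7 of the 8 in a pseudogene class and 1, LINC00672, among protein-coding genes. Each of the 7 has 1 transcript of a pseudogene class among 2 (LINC01347) to 14 (LINC02210) transcripts, and their other transcripts are of non-coding classes, processed transcript or retained intron. The table itself holds 20 genes of the long non-coding class, which is 0.053% of its identifiers and stands against 16054 such genes in GENCODE 29. Of 1879 LINC-named genes in that annotation 28 have a row, 22 of them pseudogenes, 3 coding and 3 long non-coding. Most LINC-named genes of the annotation are therefore not analysed here. A list of 35 LINC symbols was looked up by name, and none has a row. It held 5 symbols linked to pluripotent cells, 3 to endoderm and 6 to neural cells, 6 reported to encode a small protein and 15 broadly expressed. Such a search misses a gene that is entered under another symbol. Of 34 other long non-coding RNAs 1 has a row, TUNAR, a regulator of neural differentiation, which fell by 0.66 on the log2 scale from SOX2-positive to SOX2-negative cells (edgeR adjusted p = 0.0067).

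On GRCh38, LINC00888 (ENSG00000240024) lies at chr3:183447608-183456013 on the plus strand and carries the RefSeq name SNHG33, a small nucleolar RNA host gene. LINC02210 (ENSG00000204650), a transcribed unitary pseudogene, lies at chr17:45620328-45655156 on the plus strand. LINC00672 (ENSG00000263874), renamed LASP1NB, lies at chr17:38925168-38929384 on the plus strand. LINC02495 (ENSG00000249896), renamed JAKMIP1-DT, lies at chr4:6200733-6239937 on the plus strand, and LINC01529 (ENSG00000225872), renamed TEX14BP, at chr19:35785697-35797902 on the minus strand. The remaining 3 are on chromosome 1: LINC01145 (ENSG00000272419) at 145164099-145216058 on the minus strand, LINC00869 (ENSG00000277147) at 149606334-149679523 on the plus strand, and LINC01347 (ENSG00000214837) at 243056307-243101744 on the minus strand. All of these except LINC00672 and LINC02210 are transcribed unprocessed pseudogenes, copies made by duplication of DNA.

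The start regions of LINC00888 and LINC02210 are shown first, because these are the members that differed between the gates. Each window runs from 250 bases before to 50 after a RefSeq start, on GRCh38.p14, at chr3:183447358-183447657 on the plus strand for LINC00888 and at chr17:45620079-45620378 on the plus strand for LINC02210.
LINC00888: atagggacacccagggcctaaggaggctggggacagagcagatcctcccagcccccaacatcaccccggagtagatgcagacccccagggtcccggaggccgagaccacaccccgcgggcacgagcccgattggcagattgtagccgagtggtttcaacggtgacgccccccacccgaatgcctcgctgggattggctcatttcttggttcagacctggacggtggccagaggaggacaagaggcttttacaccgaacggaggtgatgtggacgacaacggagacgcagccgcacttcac
LINC02210: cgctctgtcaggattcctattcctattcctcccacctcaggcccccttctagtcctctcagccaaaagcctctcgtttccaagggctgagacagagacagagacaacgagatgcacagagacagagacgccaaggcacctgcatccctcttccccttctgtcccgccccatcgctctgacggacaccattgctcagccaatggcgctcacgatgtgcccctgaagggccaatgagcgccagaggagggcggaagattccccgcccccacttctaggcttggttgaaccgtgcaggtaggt
The LINC00888 window has 62.7% G and C and 19 CpG pairs, and that of LINC02210 has 59% G and C, against a median of 58.67% over 35116 such windows. On both strands 7 motifs were searched: the octamer letters TGCAAAT (in 4.2% of all windows), the SOX letters CATTGTT (3.33%), the TCF and LEF letters CTTTGAT (2.62%), the GATA letters AGATAA (10.33%), the forkhead letters TGTTTAC (3.42%), the T-box letters GGTGTGA (3.45%) and the TATA box TATAAA (11.53%). Neither window holds any of them. A second RefSeq start of each gene gave the same count of 0.

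A second set of start regions shows how near to each other the chromosome 1 copies can be. The windows of LINC00869, at chr1:149606762-149607061 on the plus strand, and LINC01145, at chr1:145216003-145216302 on the minus strand, share an identical run of 152 bases, printed in capitals.
LINC00869: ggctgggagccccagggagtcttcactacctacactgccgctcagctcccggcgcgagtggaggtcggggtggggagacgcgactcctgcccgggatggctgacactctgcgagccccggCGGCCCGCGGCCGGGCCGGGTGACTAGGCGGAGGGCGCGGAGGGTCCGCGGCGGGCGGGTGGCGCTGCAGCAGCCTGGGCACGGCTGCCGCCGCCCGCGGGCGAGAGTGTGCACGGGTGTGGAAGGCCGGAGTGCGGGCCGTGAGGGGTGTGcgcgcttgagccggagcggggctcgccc
LINC01145: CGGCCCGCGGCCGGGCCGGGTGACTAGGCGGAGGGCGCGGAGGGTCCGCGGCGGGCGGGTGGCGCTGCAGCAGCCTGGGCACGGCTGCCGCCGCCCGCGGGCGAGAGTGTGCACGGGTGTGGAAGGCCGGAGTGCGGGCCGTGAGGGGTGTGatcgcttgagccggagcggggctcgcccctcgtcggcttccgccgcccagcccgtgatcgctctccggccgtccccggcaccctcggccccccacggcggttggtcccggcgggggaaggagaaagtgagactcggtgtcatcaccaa
The run starts at base 121 of the LINC00869 window and at base 1 of that of LINC01145. The windows have 77% and 76.67% G and C. The T-box letters GGTGTGA, the kind bound by TBXT and EOMES, stand in the LINC01145 window from base 147, and none of the 7 motifs stands in that of LINC00869. All but the last base of this match lie in the shared run, which ends at base 152. At that last base LINC00869 has c in place of a, so the windows differ in this motif by 1 base. The LINC00672 window holds CTTTGAT, the letters bound by TCF and LEF factors of the WNT pathway. LINC01347, LINC01529 and LINC02495 were not matched.

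Shared sequence was measured in the transcripts as well. Words of 31 bases were listed from all GENCODE 29 transcripts of each member and looked up in every other gene. LINC01145 shared 88.6% of its words with some other gene, mostly LINC02591, which holds 74.9% of them and has no row in the table. LINC01347 shared 78.2%, led by AL669831.1 with 53.6%, and LINC00869 shared 59.3%, led by FAM91A2P with 26.9% and FAM91A3P with 20.9%. The coding gene FAM91A1 held 14.1% of the words of LINC00869. The other 5 members shared 3.82% to 10.1%.

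**Figure D1:**
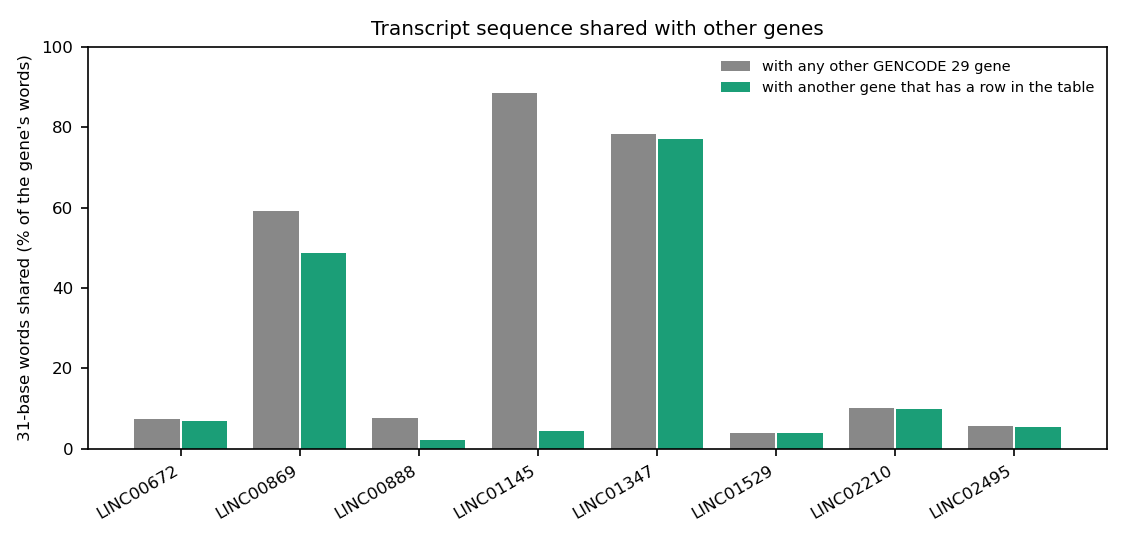
Share of each member's 31-base transcript words that also occur in another gene (y axis, percent), for any GENCODE 29 gene (grey) and for genes with a row in the table (green). LINC00869, LINC01145 and LINC01347 reach 59.3% to 88.6% in grey, while the other 5 stay at or under 10.1%.

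The closeness of such copies is visible in 90 bases of LINC01347 and AL669831.1, at bases 1026 to 1115 and 855 to 944 of their transcripts, with the 2 bases that differ in capitals.
LINC01347: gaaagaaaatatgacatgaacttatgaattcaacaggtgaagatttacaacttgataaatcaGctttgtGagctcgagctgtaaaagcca
AL669831.1: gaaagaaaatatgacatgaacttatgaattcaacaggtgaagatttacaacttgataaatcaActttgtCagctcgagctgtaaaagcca
Over 3468 aligned bases the transcripts differ at 62 and are 98.2% identical. Salmon, the counting tool, divides a read that matches several genes among them, which gives counts that are not whole. LINC00672 and LINC02495 had whole counts, to within 0.01, in 12 of 12 libraries, LINC00888 in 10 and LINC01529 in 9. LINC02210 had a whole count in 1 library, and LINC00869, LINC01145 and LINC01347 in 0. Of 17047 symbols tested, 26.9% were whole in all 12 libraries.

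The libraries held 16474856 to 28079048 estimated counts, and the 8 members together made up 65.2 to 94.4 CPM. The pluripotent marker list has 8 genes, POU5F1 and NANOG among them, and SOX2, on which the gates were sorted. SOX2 itself measured 430 to 484 CPM in SOX2-positive and 1.85 to 6.07 CPM in SOX2-negative libraries. The list summed to 6978 to 7002 CPM in control, 6183 to 7109 CPM in SOX2-positive and 2495 to 3471 CPM in SOX2-negative libraries. So control and SOX2-positive libraries had the markers of the labelled cell type, and SOX2-negative libraries had less of them. The definitive endoderm list (8 genes, SOX17 and FOXA2 among them) summed to 4.15 to 7.84, 16.03 to 82.0 and 945 to 1790 CPM in the same order, and the lateral and cardiac mesoderm list (7 genes) to 15.8 to 17.02, 2.67 to 18.4 and 144 to 464 CPM. The neural ectoderm list (7 genes) went the other way, with 981 to 1149, 50.6 to 154 and 25.1 to 102 CPM, but its gene SOX1 stayed under 1 CPM in every library. The surface ectoderm and amnion list (6 genes) was also highest in control, with 224 to 311, 17.6 to 74.7 and 146 to 187 CPM. The presomitic mesoderm list (5 genes) had 63.3 to 74.2, 10.7 to 35.7 and 39.4 to 117 CPM. The endothelial and blood list (6 genes) had 9.77 to 10.9, 101 to 198 and 50.3 to 302 CPM. The part of these cell types in the differences between groups was not tested. In RNA from many sorted cells, fewer cells of a type and less RNA per cell cannot be told apart. The library SOX2-negative at 100 ng/ml replicate 2 stood apart: it had the lowest summed level of the members, and the 2 libraries of its group differed most in a chi-square of their counts.

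The first comparison asks how SOX2-negative cells differed from SOX2-positive cells of the same colonies, over the doses 100 and 1000 ng/ml. LINC00888 was higher and LINC02210 lower in the SOX2-negative cells, and the other 6 members did not pass the test. So 2 of 8 members were called, and of the 17047 symbols tested 24% were called, 12.9% higher and 11.1% lower. The members' share is near that background. The 4085 symbols called became 2638 without SOX2-positive 100 ng/ml replicate 2 and 6835 without SOX2-negative 100 ng/ml replicate 1.

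LINC00888, the host of a small nucleolar RNA, measured 14.03 and 15.99 CPM in control. In SOX2-positive libraries it measured 12.7 and 12.9 CPM at 100 ng/ml, 11.5 CPM at 300 ng/ml, and 11.7 and 10.9 CPM at 1000 ng/ml. In SOX2-negative libraries it measured 23.5 and 19.7 CPM, 24.5 CPM, and 25.5 and 27.9 CPM at the same doses. The 5 SOX2-negative libraries lay above all 7 others, and the SOX2-positive libraries lay below both controls. Between the gates it rose 2.11-fold, a log2 fold change of 1.08 ± 0.15 (SE, edgeR adjusted p = 0.000471). The means were 24.2 ± 3.48 CPM (SD, n = 4) against 12.04 ± 0.926 CPM (SD, n = 4). Each n counts libraries of 2 doses in each of 2 repeats, so the SD holds dose as well as repeat. In the 5 pairs of gates from the same colonies the log2 ratio was above 0 in 5, at 0.61 to 1.36, with a mean of 1.01 in the first repeat and 0.98 in the second.

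LINC02210, a neighbour of CRHR1 in the inversion region of chromosome 17, was the most abundant member. It measured 44.1 and 39.9 CPM in control. In SOX2-positive libraries it measured 46.1 and 56.1 CPM at 100 ng/ml, 43.9 CPM at 300 ng/ml, and 40.6 and 51.7 CPM at 1000 ng/ml. In SOX2-negative libraries it measured 34.8 and 26.1 CPM, 27.8 CPM, and 29.6 and 32.0 CPM. The 5 SOX2-negative libraries lay below all 7 others. Between the gates it fell by 0.59 ± 0.15 on the log2 scale (SE, edgeR adjusted p = 0.0181). The means were 30.6 ± 3.69 CPM (SD, n = 4) against 48.6 ± 6.75 CPM (SD, n = 4), again over 2 doses in each of 2 repeats. All 5 same-colony ratios were below 0, at -1.10 to -0.40, with means of -0.43 and -0.90 in the repeats. The call was lost without SOX2-negative 1000 ng/ml replicate 1 (adjusted p = 0.054), SOX2-positive 100 ng/ml replicate 2 (0.093) or SOX2-positive 1000 ng/ml replicate 2 (0.0873).

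Of the symbols tested 8.62% had all 5 SOX2-negative libraries above the 7 others, like LINC00888, and 9.54% below them, like LINC02210. Over the 4 libraries a gate at 100 and 1000 ng/ml, 11.5% lay higher and 15.6% lower without overlap. KANSL1 and the readthrough gene LINC02210-CRHR1 hold 468 and 391 of the 15634 words of LINC02210, and reads from those words cannot be assigned by sequence alone. LINC02210-CRHR1 was not tested for lack of counts.

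**Figure D2:**
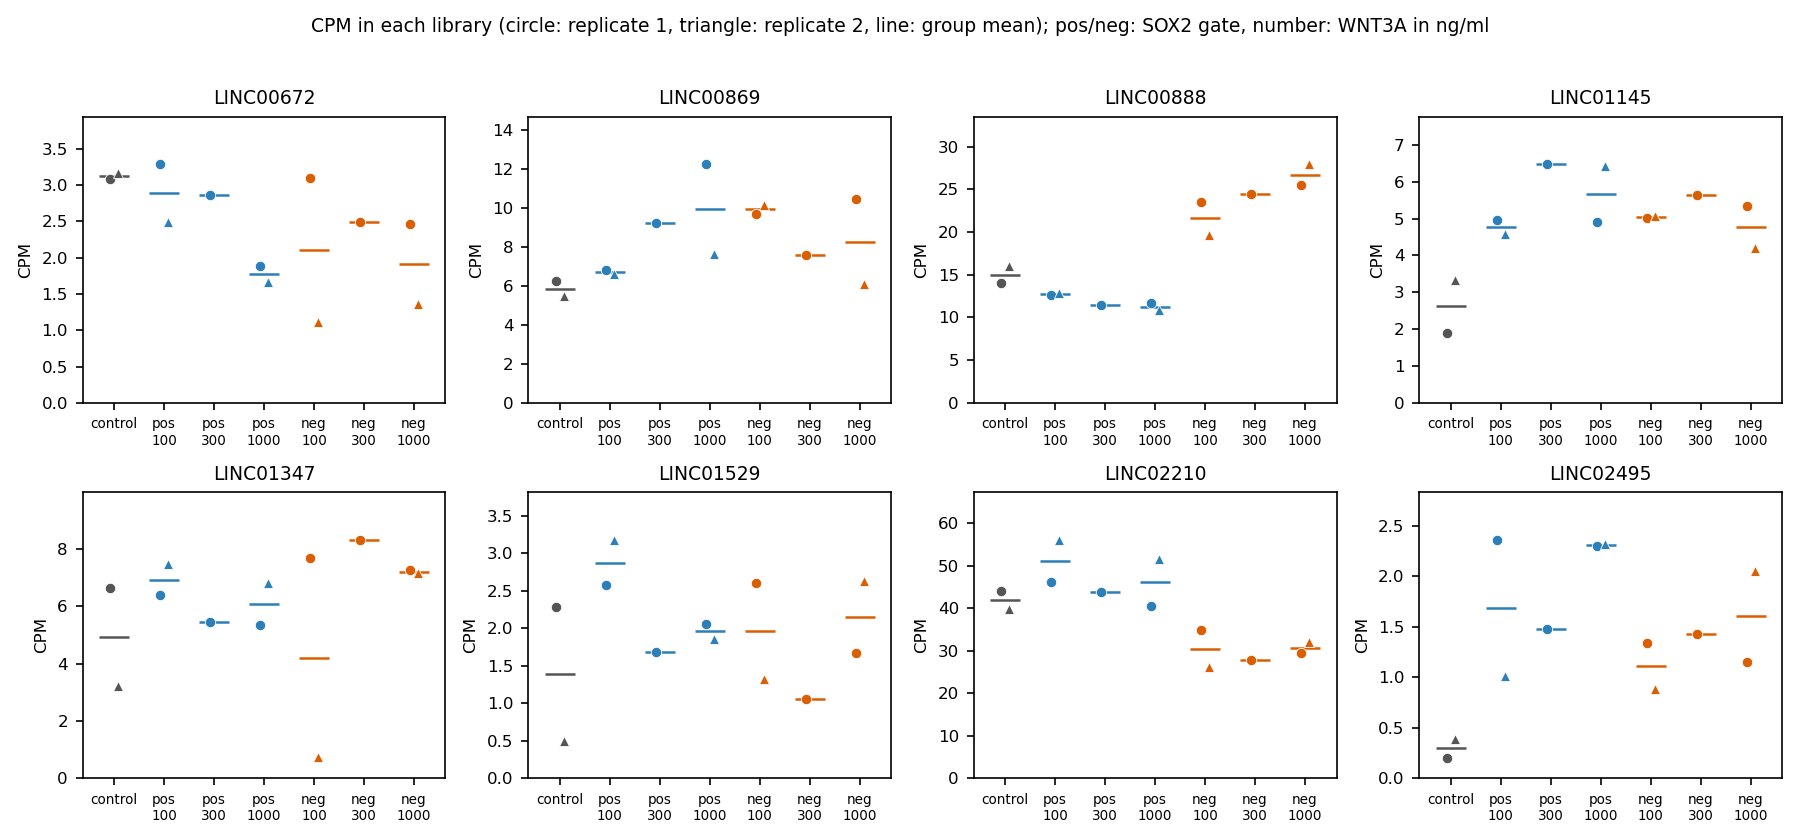
CPM of the 8 members (y axes from 0) in each of 12 libraries, grouped along the x axis by control, SOX2 gate (pos or neg) and WNT3A dose in ng/ml; circles are replicate 1, triangles replicate 2 and lines group means. The 5 SOX2-negative libraries of LINC00888 sit at 19.7 to 27.9 CPM above all others, and those of LINC02210 at 26.1 to 34.8 CPM below all others.

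The remaining 6 members gave no call between the gates. LINC00672 had a log2 fold change of -0.12 ± 0.39, LINC00869 of 0.23 ± 0.24 and LINC01145 of 0.00 ± 0.24 (SE, edgeR). LINC01347 had -0.20 ± 0.51, LINC01529 -0.13 ± 0.48 and LINC02495 -0.49 ± 0.47, and the adjusted p of these 6 ran from 0.489 to 1. LINC02495 was lower in the SOX2-negative cells in all 5 same-colony pairs, with log2 ratios from -1 to -0.05. It met the rule for members through its SOX2-positive libraries, so the choice used this difference and nothing is read from these ratios.

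The next comparisons set each gate of the treated colonies against the untreated control, and share its 2 libraries. LINC02495 was higher than control in both gates, LINC00888 was higher in the SOX2-negative gate, and no member was lower. In SOX2-positive cells 1 of 8 members was called, higher, beside 7.81% of symbols tested (4.65% higher and 3.17% lower). In SOX2-negative cells 2 of 8 were called, both higher, beside 22.5% of symbols tested (12.4% higher and 10.1% lower). LINC02495 is the 1 call in the former and 1 of the 2 in the latter, and since it was chosen through treated libraries alone nothing is read from these counts. The backgrounds depend on single libraries: 1332 symbols called in SOX2-positive cells became 440 without control replicate 1 and 250 without control replicate 2, and 3835 in SOX2-negative cells became 1857 and 1749. The former also became 702 and 831 without SOX2-positive 100 ng/ml replicates 1 and 2, and 817 without SOX2-positive 1000 ng/ml replicate 1.

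LINC02495 starts beside the gene JAKMIP1 and is transcribed away from it. It measured 0.203 and 0.392 CPM in control, from 4 and 11 counts. In SOX2-positive libraries it measured 2.36 and 1.01 CPM at 100 ng/ml, 1.48 CPM at 300 ng/ml, and 2.31 and 2.32 CPM at 1000 ng/ml. In SOX2-negative libraries it measured 1.34 and 0.884 CPM, 1.43 CPM, and 1.15 and 2.05 CPM. All 10 treated libraries lay above both controls. The fitted log2 difference from control was 2.61 ± 0.68 in SOX2-positive (edgeR adjusted p = 0.0411) and 2.12 ± 0.67 in SOX2-negative cells (0.0432). With the replicate number as a block these p-values were 0.0525 and 0.0536. Both calls were lost without control replicate 1 (edgeR adjusted p = 0.283 and 0.262) or control replicate 2 (0.206 and 0.13). The former was also lost without SOX2-positive 100 ng/ml replicate 1 (0.123) or either 1000 ng/ml library (0.0866 and 0.0837), and the latter without SOX2-negative 1000 ng/ml replicate 2 (0.0968) or with only the compared groups in the fit (0.0884). Because the gene reached 2 CPM only in treated libraries, the choice of members used this difference, which is given as a description.

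LINC00888 lay 0.69 ± 0.19 on the log2 scale above control in SOX2-negative cells (edgeR adjusted p = 0.0236) and -0.39 ± 0.18 from control in SOX2-positive cells (0.257). The first call was lost without control replicate 1 (adjusted p = 0.226), control replicate 2 (0.106) or SOX2-negative 1000 ng/ml replicate 2 (0.0542), with no filter on low counts (0.0699), and with only the compared groups in the fit (0.0794). LINC02210 had -0.44 ± 0.19 in SOX2-negative (0.116) and 0.15 ± 0.19 in SOX2-positive cells (0.725). Without SOX2-negative 100 ng/ml replicate 1 the former was -0.52 and passed (edgeR adjusted p = 0.0362).

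LINC01145 and LINC00869 lay higher in most treated libraries than in control, but neither passed the test. The fractions of their estimated counts complement each other in both controls. LINC00869 had 123.501 and LINC01145 37.499 counts in control replicate 1, and 154.094 and 93.906 in replicate 2. They do not in SOX2-positive 100 ng/ml replicate 1, with 133.228 and 96.45 counts. Whether Salmon divided reads between the 2 genes was not tested, so they are not taken as separate observations. LINC01145 measured 1.90 and 3.34 CPM in control, 4.95, 4.59, 6.47, 4.90 and 6.42 CPM in SOX2-positive and 5.02, 5.07, 5.64, 5.35 and 4.20 CPM in SOX2-negative libraries, in the order of doses. All 10 treated libraries lay above both controls, with a log2 difference of 0.92 ± 0.34 in each gate (edgeR adjusted p = 0.149 and 0.0837). LINC00869 measured 6.25 and 5.49 CPM in control, 6.84, 6.63, 9.24, 12.3 and 7.64 CPM in SOX2-positive and 9.70, 10.2, 7.58, 10.5 and 6.09 CPM in SOX2-negative libraries. Its differences were 0.41 ± 0.30 and 0.64 ± 0.31 (edgeR adjusted p = 0.491 and 0.162), and 1 treated library, SOX2-negative 1000 ng/ml replicate 2, lay between the controls. In SOX2-positive cells 3 members (LINC00869, LINC01145 and LINC02495) lay above both controls in all 4 libraries of 100 and 1000 ng/ml, as did 25.8% of symbols tested, and 1 (LINC00888) lay below, as did 18.2%. In SOX2-negative cells 3 (LINC00888, LINC01145 and LINC02495) lay above, as did 20.1%, and 1 (LINC02210) lay below, as did 20.6%. LINC02495 was chosen through treated libraries alone, so nothing is read from its place in these counts. LINC00869 and LINC01145 are not taken as separate observations there either.

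**Figure D3:**
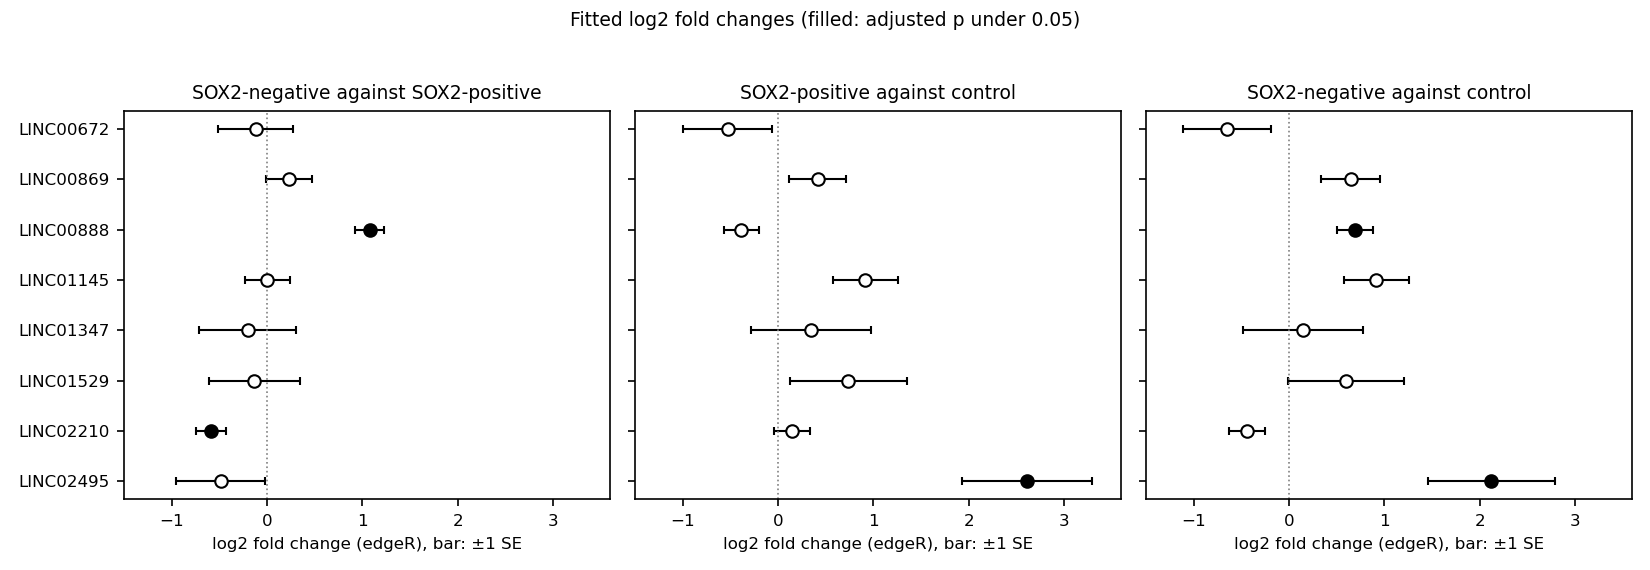
Fitted log2 fold changes (x axis) of the 8 members (y axis) in the 3 comparisons, with bars of ±1 SE and filled circles where the edgeR adjusted p is under 0.05. LINC00888 and LINC02210 are filled between the gates at 1.08 and -0.59, and LINC02495 is filled against control in both gates at 2.61 and 2.12. LINC00888 is also filled in SOX2-negative cells against control, at 0.69.

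LINC01347 had 1 library far below the rest. It measured 6.63 and 3.21 CPM in control, 6.38, 7.47, 5.45, 5.35 and 6.82 CPM in SOX2-positive libraries, and 7.68, 0.734, 8.32, 7.26 and 7.15 CPM in SOX2-negative libraries, in the order of doses. The library SOX2-negative 100 ng/ml replicate 2 was the lowest of all 12, and its replicate was the second highest. Its 6 main relatives summed to 116 CPM there against 122 to 243 CPM elsewhere, and LINC01347 made up 0.629% of the whole against 2.57% to 4.24%. In the same library the 5 main relatives of LINC00869 summed to 20.5 CPM, against 38.1 to 60.9 CPM in the other 11, and LINC00869 made up 33.2% of that whole, against 9.09% to 20.5%. By group means nearly all of the sum over these relatives came from the coding gene FAM91A1. Its mean was 40.8 CPM in control and, at 100 and 1000 ng/ml, 46.4 CPM in SOX2-positive and 42.3 CPM in SOX2-negative libraries. Without SOX2-negative 100 ng/ml replicate 1 the log2 difference of LINC01347 between the gates was -1.39 (edgeR adjusted p = 0.00724), and its difference from control turned from 0.15 to -1.04 (0.0468). That fit called 6835 of 17032 symbols between the gates and 6111 against control, where the fit of all libraries called 4085 and 3835.

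LINC01529 and LINC00672 gave no call in any comparison. LINC01529 measured 2.28 and 0.499 CPM in control, 2.57, 3.18, 1.68, 2.06 and 1.86 CPM in SOX2-positive and 2.61, 1.33, 1.06, 1.68 and 2.63 CPM in SOX2-negative libraries, and the groups overlapped. It overlaps ARHGAP33 on the other strand and shares 182 of its 4766 words with that gene. With the strand setting not given in the sources used here, reads from those words cannot be assigned to 1 of the pair. LINC00672 measured 3.09 and 3.17 CPM in control, 3.29, 2.49, 2.86, 1.88 and 1.67 CPM in SOX2-positive and 3.10, 1.11, 2.49, 2.46 and 1.36 CPM in SOX2-negative libraries. In SOX2-positive libraries the values at 1000 ng/ml lay below those at 100 ng/ml. In SOX2-negative libraries the lowest value, 1.11 CPM, was at 100 ng/ml. The log2 dose effects were -0.70 ± 0.55 and -0.15 ± 0.55 (SE, edgeR), and neither passed the test. The log2 differences from control were -0.53 ± 0.46 and -0.65 ± 0.46 (edgeR adjusted p = 0.579 and 0.354).

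The dose comparisons set 1000 against 100 ng/ml within each gate and compared that effect between the gates. With all libraries edgeR called no member and no symbol (0% in each). At an unadjusted p under 0.05 edgeR gave 0 members in each, and 293, 3107 and 1349 symbols in SOX2-positive, in SOX2-negative and in their difference. DESeq2 called 5, 411 and 16 symbols and limma-trend 0, 0 and 0. With no filter on low counts edgeR called 107, 1551 and 308 of 22837 symbols. Without SOX2-negative 100 ng/ml replicate 1 it called 5739 of 17032 symbols for dose in SOX2-negative cells and 3795 for the difference, LINC01347 among both. With all libraries the lowest edgeR adjusted p of a member was 1, 0.485 and 0.525. For LINC00888 the dose effect differed between the gates by 0.44 ± 0.30 (edgeR adjusted p = 0.55).

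Coding neighbours within 100 kb were compared with the members they lie beside, as a description. MCF2L2, which encodes a guanine nucleotide exchange factor, lies 18830 bases from LINC00888 on the other strand. It measured 5.11 and 4.90 CPM in control, 5.84, 4.87, 4.76, 5.04 and 6.74 CPM in SOX2-positive and 13.7, 7.26, 19.1, 19.6 and 17.2 CPM in SOX2-negative libraries. All 5 SOX2-negative libraries lay above the 7 others, as for LINC00888, and the log2 fold change between the gates was 1.37 (edgeR adjusted p = 0.0012).

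JAKMIP1, which encodes a microtubule-binding protein, starts 142 bases from LINC02495 and runs the other way. It measured 2.70 and 3.16 CPM in control, 6.32, 5.56, 8.12, 12.6 and 10.7 CPM in SOX2-positive and 18.0, 13.6, 24.1, 36.6 and 18.5 CPM in SOX2-negative libraries. Both genes lay above control in all 10 treated libraries, but between the gates JAKMIP1 rose by 1.40 (edgeR adjusted p = 0.00135) while LINC02495 had -0.49 (0.489). The difference between these genes was not tested.

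**Figure D4:**
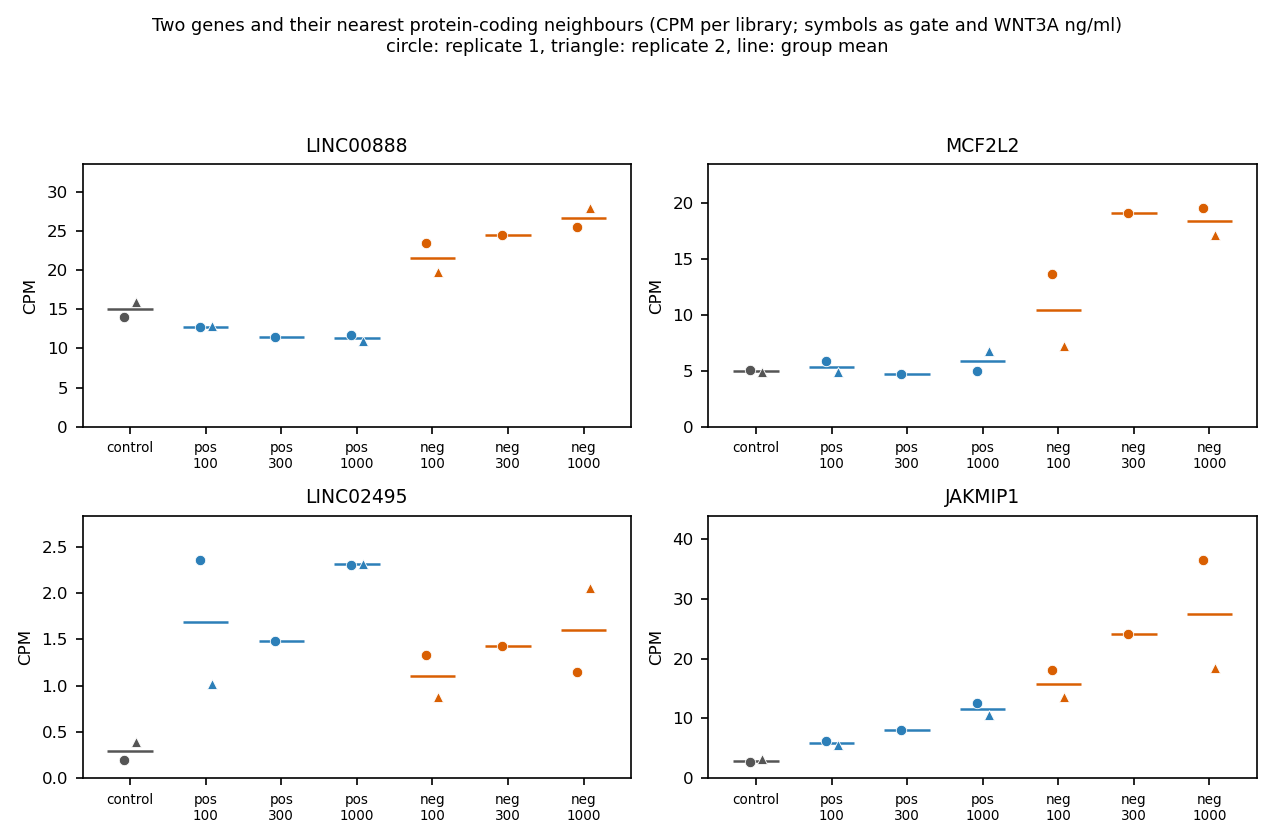
CPM (y axes from 0) of LINC00888 and its neighbour MCF2L2 and of LINC02495 and its neighbour JAKMIP1 in 12 libraries, by control, SOX2 gate and WNT3A dose in ng/ml (x axis); circles are replicate 1, triangles replicate 2, lines group means. LINC00888 and MCF2L2 are both higher in SOX2-negative libraries, while JAKMIP1 at 13.6 to 36.6 CPM is higher there and LINC02495 at 0.884 to 2.05 CPM is not.

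The other neighbours tested gave no call between the gates. LASP1, 3398 bases from LINC00672, had a log2 fold change of 0.26 between the gates, CEP170 beside LINC01347 had -0.38 and ARHGAP33 -0.32 (edgeR adjusted p = 0.29, 0.332 and 0.22). The neighbours of LINC00869, LINC01145 and LINC02210 were not tested. Of the 5 pairs with both genes tested 3 had the same sign between the gates (60%), against 59.1% of 14167 other pairs, and no neighbour is on the list of lineage regulators.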

How the data were processed

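Libraries of poly-A RNA were sequenced as paired ends, per the labels' protocols. The authors deposited estimated counts per gene, with unequal column totals. Salmon and GRCh38 come from the submitters' processing notes. The Salmon version, the annotation, the transcripts counted and the strand setting are not given in the sources used here.

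The 37951 identifiers were summed by symbol to 35940 and the estimated counts were rounded. Tests used edgeR 4.0.16 in R 4.3.3: TMM scaling, filterByExpr by group, and a two-sided quasi-likelihood test with Benjamini-Hochberg adjustment over 17047 symbols, calling those under 0.05. The model held 12 libraries and 7 group means, with 5 residual degrees of freedom. CPM divides by the library total. Groups and replicate numbers come from the titles. The series description makes the second set a biological repeat of 1 cell line, so p-values measure the spread between repeats.

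The series description pairs the replicate numbers, since the gates were sorted from shared colonies and each repeat was run separately. Same-numbered libraries deviated from their group means with correlations of -0.06 to 0.22 in 10 pairs of groups, across genes, which are not independent. No replicates were alike to within sampling noise.

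The members and gene lists were chosen with earlier results of these data known. All 8 members passed the filter and are all named, along with the 3 LINC symbols just outside the level. Alternatives were DESeq2 1.42.0, limma-trend in limma 3.58.1, other scalings and filters, the repeat as a block, identifiers kept apart, other thresholds and each library left out. On simulated data for the comparison between gates (16518 genes) 48.1% of 54 genes set to change 2-fold were called by edgeR. The share was 74.7% of 75 genes at 4-fold and 85.5% of 69 at 8-fold, with 6% false calls. Far fewer genes changed there than the 24% called in the data. The adjustment depends on that share, so these rates need not hold for the data. Positions and transcript words came from GENCODE 29, and start regions from RefSeq.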

Additional observations from a re-analysis of the deposited data

Results flagged for a closer look

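LINC00888 and LINC02210 are given here because their treated-against-control difference differed between the gates, as tested by the contrast of the gates, in which the shared control cancels. The difference in SOX2-negative minus that in SOX2-positive cells was 1.08 on the log2 scale for LINC00888 (edgeR adjusted p = 0.000471) and -0.59 for LINC02210 (edgeR adjusted p = 0.0181).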

How the results depend on the processing

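Between the gates LINC00888 kept its call under all 10 alternatives of processing (log2 1.00 to 1.11) and in all 8 fits without 1 library (1.03 to 1.09). LINC02210 kept its call under the 10 alternatives (-0.67 to -0.58) and lost it in 3 of the 8 fits without 1 library. Pairing the libraries by a replicate block left 1 member higher than control in SOX2-negative cells in place of 2, and 0 in SOX2-positive cells in place of 1. The member lost was LINC02495 in both, and the block changed no other member's call. Members higher than control in SOX2-negative cells were 1 with no filter, 1 with identifiers apart, 0 with only the compared groups fitted and 1 at a threshold of 5 CPM. In SOX2-positive cells they were 0 with identifiers apart and 0 at 5 CPM. At 5 CPM there were 5 members, and at 1 CPM 12.

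With each library left out in turn, members higher and lower between the gates numbered 1 to 1 and 0 to 2, while 2638 to 6835 symbols were called in the same fits. The 2 lower came without SOX2-negative 100 ng/ml replicate 1, the fit that called 6835. Against control they were 0 to 2 and 0 to 2 in SOX2-negative (1749 to 6111 symbols called), and 0 to 1 and 0 to 0 in SOX2-positive cells (250 to 1012, and 3243 with only the compared groups fitted). For dose they were 0 to 1 and 0 to 0 in SOX2-negative cells, 0 to 0 and 0 to 0 in SOX2-positive cells, and 0 to 1 and 0 to 0 for the difference. LINC01347 against control in SOX2-negative cells, 0.15 with all libraries, ran from -1.04 to 0.73, the former without 100 ng/ml replicate 1, where the lone remaining library is assumed to vary like the other groups. In that fit its dose effect was 3.16 in SOX2-negative cells (edgeR adjusted p = 0.00325), and 3.35 above that in SOX2-positive cells (0.0104), where 5739 and 3795 of 17032 symbols were called. The cause was not tested. With 2 libraries a group, and 4 and 11 control counts for LINC02495, depth and number limit what can be called.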
